A study of Mus musculus with 2 samples.

Results

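Complement genes were followed in the synovium of mouse knees, a soft tissue around the joint space, by single-cell RNA-seq. The set was given as 39 gene symbols for components, regulators and receptors of the complement system, and a symbol was kept when its row held at least 10 unique molecular identifiers (UMIs, 1 per captured transcript molecule) over both libraries. Of the 39, 36 were kept, of 32285 rows in all. C8a and C8b, 2 chains of the membrane attack complex component C8, had 0 UMIs, and Hc, which encodes C5, had 8. C9, the last component to join the membrane attack complex, was kept at exactly 10 UMIs.

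There were 2 libraries, both from wild-type mice: 1 of control synovium and 1 of synovium labelled MMS, with D14 written in its protocol. The labels spell out neither MMS nor what was done to the control knees. Each pooled the synovium of 20 knees, so a library is a pool and there was 1 sample per group. No test was possible for that reason, and every difference given here is between these 2 libraries. A level is the UMIs of a gene per 1000000 UMIs of a class of cells (CPM), summed over its cells. Ratios are MMS over control on a log2 scale with an exact conditional binomial 95% interval, and shares of cells have exact Clopper-Pearson 95% intervals. These intervals cover counting error only, not the spread between mice.

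Complement is a cascade of plasma proteins and their receptors. The classical pathway starts when C1q binds an antibody or a surface and its proteases C1r and C1s cleave C4 and C2. The lectin pathway starts with collectins or ficolins and the MASP proteases, and the alternative pathway runs on factor B, factor D and properdin. These pathways all converge on C3, whose cleavage tags surfaces and leads to the C5a and C3a signals and to the membrane attack complex of C5 to C9. The liver makes most plasma complement, while fibroblasts and macrophages are known to make components within tissues, the joint included.

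The control library held 84900876 UMIs and the MMS library 85597195. Filters left 6880 cells in control, at a median depth of 10977 UMIs, and 3769 in MMS, at 17452. The libraries shared 6 barcodes, 4 of them among kept cells. GEO's cell type label reads goblet cells, yet the 8 goblet markers summed to at most 0.654 CPM in any class of either library. Cells were clustered with all complement genes left out and clusters were named from other markers. Fibroblast-like cells numbered 3196 in control and 1470 in MMS, macrophage or monocyte-like cells 1014 and 468, endothelial-like cells 1960 and 706, dendritic-like cells 359 and 87, mural-like cells (pericytes and smooth muscle) 145 and 180, adipocyte-like cells 31 and 71, and neutrophil-like cells 20 and 310. The MMS library was deeper per cell, so shares of cells with a UMI are given after each cell had been thinned to 2000 UMIs where they are compared.

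The genes fell into a stromal and a myeloid group. By the number of UMIs held, fibroblast-like cells were the main source of 21 of the 36 genes in control and 19 in MMS, macrophage or monocyte-like cells of 10 in each, and endothelial-like cells of 3 in each. Some of these rested on few UMIs in kept cells. C9, counted as endothelial-like, had 6 in control, tied with fibroblast-like cells, and 3 in MMS. Cr2, counted as endothelial-like in control, had 17 there. C6, counted as fibroblast-like, had 16 in control, tied with macrophage or monocyte-like cells. C3, the central component, had 98.8% of its control UMIs and 87.9% of its MMS UMIs in fibroblast-like cells. C1qa, a chain of C1q, had 93.8% of its control UMIs and 91.4% of its MMS UMIs in macrophage or monocyte-like cells. By level, taken as the mean CPM of both libraries over classes with at least 20 cells in each, the order differed: adipocyte-like cells were highest for 9 genes, fibroblast-like and macrophage or monocyte-like cells for 8 each, mural-like cells for 4, endothelial-like cells for 3, dendritic-like cells for 2, and neutrophil-like and T or NK-like cells for 1 each.

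**Figure D1:**
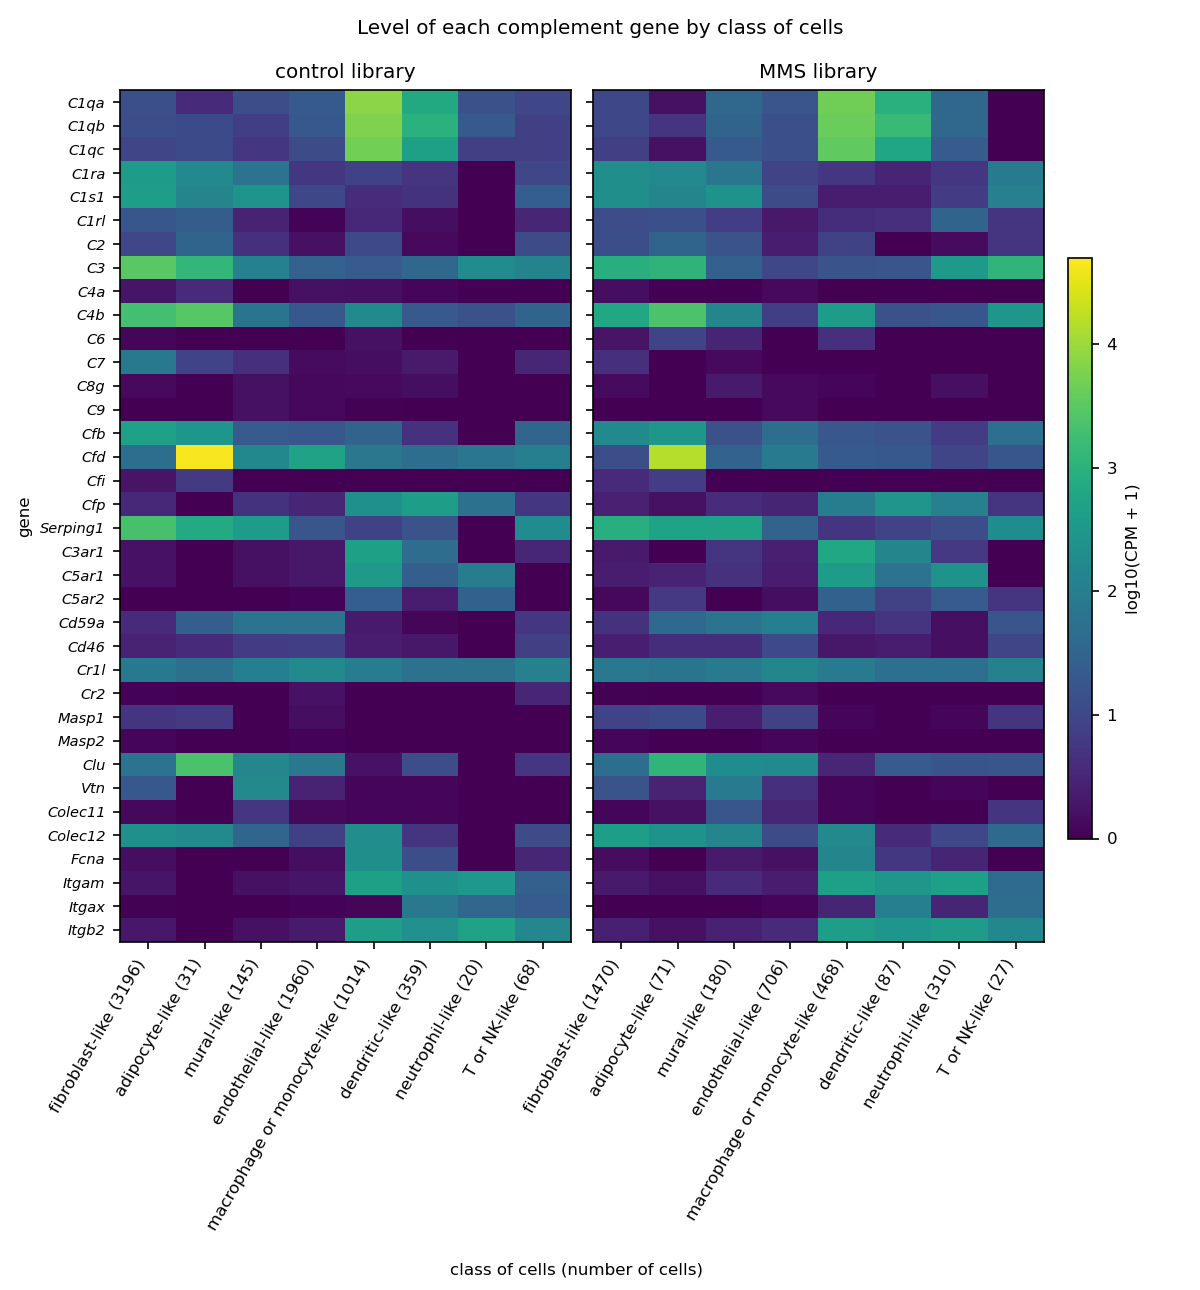
Level of the 36 complement genes in 8 classes of cells, as log10(CPM + 1), with the control library on the left and the MMS library on the right. The C1q chains are bright in macrophage or monocyte-like and dendritic-like cells, C3, C4b and Serping1 in fibroblast-like cells, and Cfd in adipocyte-like cells (45119 and 15284 CPM).

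**Figure D2:**
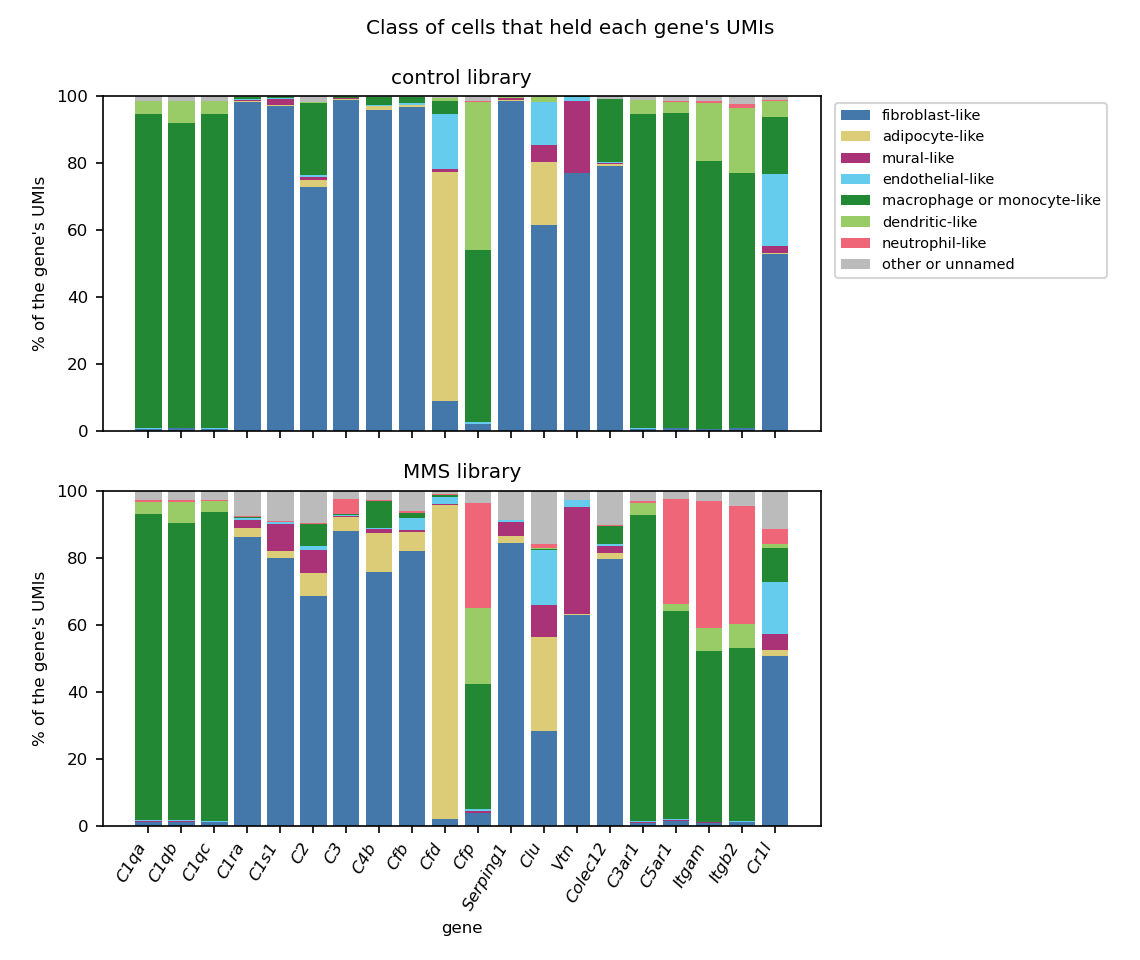
Share of each gene's UMIs held by each class of cells, in percent, for 20 of the genes in the control (top) and MMS (bottom) library. The fibroblast-like share of C4b was 95.9% and 75.7%, and neutrophil-like cells, nearly absent from the control library, held 37.9% of the Itgam UMIs in MMS.

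The promoters of C3, C1s1 and C7 are shown as examples. These genes had most of their UMIs in fibroblast-like cells and lower levels there in MMS. Each held a motif match in the bases shown. Other genes of that description are not shown, such as C1ra, with C/EBP and GAS letters after its start site. Another is C1rl, with C/EBP letters 243 bases upstream. The set of RefSeq promoters used (GRCm38.p6) had an entry for 25 of the 36 genes. C4b, Cfb and Serping1 had none in that set, so their promoters were not searched. C1s1 has 2 start sites in RefSeq: the one shown is the one further upstream, and the window of the other, chr6:124542272-124542571, holds no match to the motifs searched. Each sequence is the 250 bases before the start site, written on the strand of the gene. Capitals mark letters that match a searched motif: C/EBP (TTGCNNAA) 45 bases upstream of the start in C3 and 242 in C1s1 (there on the other strand), and the gamma-activated site GAS (TTCNNNGAA) 164 bases upstream in C7.
C3, chr17:57228137-57228386, minus strand: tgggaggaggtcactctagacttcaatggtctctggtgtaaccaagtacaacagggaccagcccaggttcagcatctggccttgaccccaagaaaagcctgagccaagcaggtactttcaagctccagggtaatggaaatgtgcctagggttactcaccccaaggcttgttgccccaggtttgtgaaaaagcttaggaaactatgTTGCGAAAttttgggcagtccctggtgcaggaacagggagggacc
C1s1, chr6:124542360-124542609, minus strand: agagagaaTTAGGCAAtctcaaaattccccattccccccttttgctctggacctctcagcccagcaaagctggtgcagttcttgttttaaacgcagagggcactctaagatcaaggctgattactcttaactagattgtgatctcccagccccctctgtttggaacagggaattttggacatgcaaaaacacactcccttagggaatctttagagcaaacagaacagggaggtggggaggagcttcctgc
C7, chr15:5063774-5064023, minus strand: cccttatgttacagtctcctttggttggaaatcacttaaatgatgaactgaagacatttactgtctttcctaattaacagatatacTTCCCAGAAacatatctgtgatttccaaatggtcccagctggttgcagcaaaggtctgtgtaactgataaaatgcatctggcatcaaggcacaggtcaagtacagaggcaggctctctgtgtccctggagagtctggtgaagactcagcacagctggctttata
The search covered 300 bases per start site, 50 of them after it, on both strands, and the motifs may overlap. C/EBP letters were in 6 of the 28 windows of the 25 genes (21.4%) against 10.8% of all promoters, GAS in 5 (17.9%) against 8.30%, the interferon-stimulated response element core (GAAANNGAA) in 6 (21.4%) against 8.56%, AP-1 (TGANTCA) in 3 (10.7%) against 7.81%, and NF-kB (GGGNNTTCC) in 0 against 5.82%. C7 also held the interferon-stimulated response element core 8 bases after its start, outside the sequence shown. A match is a run of letters, with no measurement of binding here.

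C1q transcripts were held by macrophages and, at a lower level, by dendritic cells. The genes C1qa (chr4:136895917-136898803), C1qb (chr4:136880129-136886187) and C1qc (chr4:136889804-136893065) lie next to each other on the minus strand of chromosome 4 (GRCm38), with 3616 bases between C1qb and C1qc and 2851 between C1qc and C1qa. In macrophage or monocyte-like cells, C1qa stood at 7711 CPM in control against 4873 in MMS, C1qb at 6233 and 4299 CPM, and C1qc at 4964 and 3605 CPM. All 3 chains were lower in MMS by less than 2-fold, with log2 ratios of -0.66 (-0.68 to -0.64), -0.54 (-0.56 to -0.52) and -0.46 (-0.48 to -0.44). At an equal depth of 2000 UMIs, 100.0% of control and 99.6% of MMS cells of this class had a C1qa UMI. The C1qa log2 ratio was -1.61 with the limit on mitochondrial UMIs at 5%, and -1.05 with doublets kept.

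Both macrophage or monocyte-like clusters showed the lower level. In cluster 13, which held 556 control and 410 MMS cells, C1qa was at 8167 and 4866 CPM in control and MMS. In cluster 15, with 458 and 58 cells, it was at 7008 and 4945 CPM. The sub-class named from Lyve1 and other resident markers (408 control and 84 MMS cells) differed less, with C1qa at 7095 and 5601 CPM and a log2 ratio of -0.34 (-0.38 to -0.30). Most of that sub-class came from sub-clusters 1 and 4 in control and from sub-cluster 7 in MMS, so the cells compared were not of the same sub-clusters. MMS sub-cluster 8, led by Spp1 (141 MMS cells), had the lowest C1qa level among the MMS sub-clusters with at least 20 cells, at 3801 CPM, and control sub-cluster 0 the highest in control, at 9703 CPM.

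The 3 chains kept a near-constant proportion. Of all C1q UMIs in macrophage or monocyte-like cells, the control library had 40.8% C1qa, 33.0% C1qb and 26.3% C1qc, and the MMS library 38.1% C1qa, 33.6% C1qb and 28.2% C1qc. Dendritic-like cells differed from these in the order of the chains, with 32.8% C1qa, 45.5% C1qb and 21.7% C1qc in control and 32.1% C1qa, 47.7% C1qb and 20.2% C1qc in MMS. All 3 chains were higher in MMS dendritic-like cells, where C1qa was at 709 and 974 CPM, C1qb at 982 and 1444 CPM and C1qc at 469 and 612 CPM. A C1qb UMI was found there in 27.4% of control and 47.0% of MMS cells at 2000 UMIs. The 8 macrophage markers summed to 10703 CPM in control and 13278 in MMS in this class, and their part in these values was not tested. In fibroblast-like cells, C1qa was at 13.1 and 9.34 CPM, and a C1qb UMI was found in 2.31% of control and 0.716% of MMS cells at that depth. These are UMIs near transcript ends, captured per gene with unknown efficiency, so a share of chains is not a ratio of proteins.

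The proteases of the classical pathway were stromal. C1ra (chr6:124512405-124523443, plus strand) encodes C1r, and C1s1 (chr6:124530345-124542359, minus strand), 6901 bases further on chromosome 6, encodes C1s. In fibroblast-like cells, C1ra stood at 391 CPM in control against 213 in MMS, log2 ratio -0.88 (-0.91 to -0.84). C1s1 stood at 434 CPM in control against 220.3 in MMS, log2 ratio -0.98 (-1.02 to -0.94). Mural-like cells held C1s1 at 273 and 260.5 CPM, log2 ratio -0.07 (-0.24 to 0.10), with far less C1ra, 61.5 and 69.9 CPM. The number of C1s1 UMIs for each C1ra UMI was 4.44 in control and 3.73 in MMS mural-like cells, against 1.11 and 1.03 in fibroblast-like cells. C1rl, a relative of C1r, was at 17.4 and 12.1 CPM in fibroblast-like cells and at 32.2 CPM in the 310 neutrophil-like cells of the MMS library. C1rb and C1s2, close copies of C1ra and C1s1, had 10 and 11 UMIs over both libraries, so reads that fit both copies may be missing from these counts.

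C3 and C4b, the components cleaved on activation, were lower over all fibroblast-like cells of the MMS library, and so were Cfb and Serping1. C3 (chr17:57203970-57228136, minus strand) stood at 3139 CPM in control against 889.8 in MMS in fibroblast-like cells, 3.53-fold lower in MMS, log2 ratio -1.82 (-1.84 to -1.80). C4b (chr17:34728380-34743882, minus strand), which encodes C4, stood at 2002 CPM in control against 622 in MMS, log2 ratio -1.69 (-1.71 to -1.67). Cfb, which encodes factor B, the protease of the alternative pathway convertase, stood at 480.4 CPM in control against 179.5 in MMS, log2 ratio -1.42 (-1.46 to -1.38). Serping1, the C1 inhibitor that blocks C1r and C1s, stood at 2117 CPM in control against 886 in MMS, log2 ratio -1.26 (-1.27 to -1.24). All 4 were at least 2-fold lower in MMS over the class as a whole. The near copy C4a had 97 UMIs over both libraries, and reads shared by C4a and C4b may be missing from both.

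Over the class, 6 of the 33 measured genes were at least 2-fold lower in MMS: C3, C4b, C7, Cfb, Cfd and Serping1. The share among all 16105 genes measured in these cells was 9.75%. The 3 at least 2-fold higher were C6, Cfi and C5ar2, against 9.95% of all genes, and C6 and C5ar2 rested on 40 and 12 UMIs. Counted without a limit on size, 12 of 33 were higher in MMS by any amount, against 55.3% of all genes. The median log2 ratio was -0.32 over the 33 and 0.06 over all genes. With 1 library per group these counts describe the libraries.

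The share of fibroblast-like cells with these transcripts followed the level. At 2000 UMIs, a C3 UMI was found in 82.7% of control and 31.4% of MMS cells, and a C4b UMI in 71.6% of control and 46.7% of MMS cells. Endothelial-like cells at the same depth gave 5.62% of control and 2.02% of MMS cells for C3. For C4b they gave 4.22% of control and 2.17% of MMS cells. How much of these shares was background was not tested. Among control cells with a C3 UMI, 80.5% also had C4b, and 29.2% of those without C3 did. In MMS the values were 85.6% and 28.8%. Serping1 was found in 95.1% of control cells with C3 and in 57.5% of those without it, and in 87.2% and 38.5% in MMS. These cells share a library, and the values carry no test.

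The makeup of the fibroblast-like class differed between the libraries. Lining-like cells, which face the joint space and make the lubricant Prg4, numbered 246 in control and 485 in MMS. Sublining-like cells numbered 2118 and 378, and cells of unnamed sub-clusters 832 and 607. Markers differed in the same way: the 7 lining markers summed to 13671 CPM in control and 61468 in MMS, and the 9 sublining markers to 7438 CPM in control and 3564 in MMS. Clusters 3, 4, 5 and 9 held most of the control cells of the class, and clusters 17, 11 and 5 most of the MMS cells.

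Lining-like cells had little C3 in either library, 20.3 and 13.7 CPM, and C4b at 88.0 and 124 CPM. Sublining-like cells had C3 at 3850.2 CPM in control against 3865 in MMS, log2 ratio 0.01 (-0.01 to 0.02). C4b was at 1987 CPM in control against 1919.9 in MMS there, log2 ratio -0.05 (-0.08 to -0.02). Serping1 was at 2260.3 and 2582 CPM, log2 ratio 0.19 (0.17 to 0.21), and Cfb at 498 and 708 CPM, log2 ratio 0.51 (0.46 to 0.55). None of these 4 was lower in MMS sublining-like cells by more than 0.05 on the log2 scale, in contrast to the whole class. C1ra was at 459 and 611 CPM, log2 ratio 0.41 (0.37 to 0.46), and C1s1 at 536 and 707 CPM, log2 ratio 0.40 (0.36 to 0.44).

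When lining-like and sublining-like cells were given equal weight in both libraries and the unnamed sub-clusters were left out, the log2 ratio of C3 was 0.00312, of C4b -0.022, of Serping1 0.053 and of Cfb 0.51. At that weighting the lower level of the whole class was not seen for these 4 genes. The weighting did not fix the makeup within sublining-like cells, whose sub-clusters differed between the libraries. Whether makeup accounts for the lower level was not tested. The unnamed sub-clusters had C3 at 2925 and 348 CPM and Cfb at 673 and 95.7 CPM. Here the libraries held different cells: sub-cluster 2 (628 control and 3 MMS cells), with Tnmd among its leading genes, had C3 at 3558 CPM, while sub-cluster 10 (10 control and 363 MMS cells), with Mmp13, Tnc and Lrrc15 as leading genes, had C3 at 243 CPM and C4b at 379.6 CPM.

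**Figure D3:**
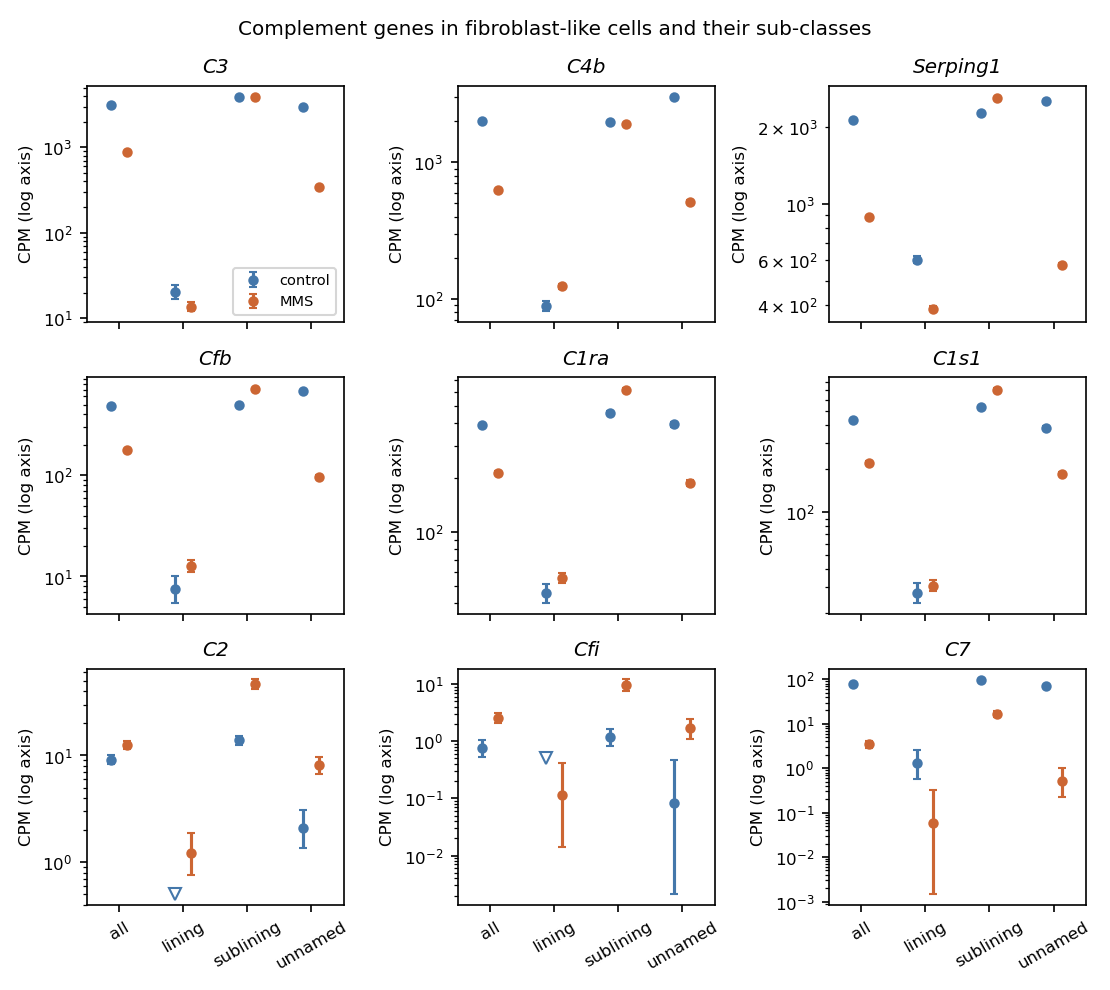
Level of 9 complement genes in all fibroblast-like cells and in their lining-like, sublining-like and unnamed sub-classes, in CPM on a log axis, control in blue and MMS in orange. Bars are exact Poisson 95% intervals (counting error only, most narrower than the point), and an open triangle marks the level of 3 UMIs where none was found. C3 lies at 3850.2 and 3865 CPM in sublining-like and at 20.3 and 13.7 CPM in lining-like cells.

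Sublining-like cells were themselves of different sub-clusters in the libraries. Sub-clusters 1, 3, 4, 5, 7 and 8 held most of the control cells, and 9 and 18 most of the MMS cells. In control, C3 ranged from 624 CPM in sub-cluster 7 to 5976 in sub-cluster 8, where Pi16 and Dpp4 were among the leading genes. In MMS, it ranged from 1001 CPM in sub-cluster 0 to 7431 in sub-cluster 18 (2 control and 139 MMS cells), with Saa1 and Lcn2 among its leading genes, which also had C4b at 3057 and Serping1 at 3346 CPM. These leading genes were used to form the sub-clusters and are given to identify them.

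Sub-cluster 0, with Gdf10 among its leading genes, had cells of both libraries, 124 and 45. Its C3 was at 3599 CPM in control and 1001 in MMS, and C4b at 1414 and 840.2 CPM. C2, which is cleaved by C1s and joins C4 in the classical convertase, was higher in its MMS cells, 679 CPM against 234 in control. The next highest C2 level among fibroblast-like sub-clusters with at least 20 cells of a library was 24.7 CPM, in MMS sub-cluster 17. C2 lies just upstream of Cfb on the minus strand of chromosome 17, with 85 bases between the genes.

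Whole clusters with at least 20 cells of both libraries gave mixed results. C4b was lower in MMS in clusters 2 (1322 and 659 CPM), 5 (3352 and 2519 CPM), 8 (1979.7 and 837 CPM) and 11 (1138 and 512 CPM), and higher in cluster 17 (87.3 and 128 CPM), which is led by lining genes. C3 was lower in cluster 2 (2858 and 878 CPM) and cluster 8 (672 and 529.6 CPM), higher in cluster 5 (4022 and 5519 CPM), and nearly level in clusters 11 (396 and 389 CPM) and 17 (12.1 and 11.1 CPM). A lower C4b level in MMS was thus seen inside 4 of 5 such clusters, and a lower C3 level beyond counting error inside 2. The cells compared inside a cluster need not be of the same sub-clusters. Among the leading genes of cluster 8, Cp and Pi15 also led sub-cluster 6 (104 control and 4 MMS cells). Others, Pcsk5, Lox and Galnt9, led sub-cluster 14 (11 control and 128 MMS cells). The part of makeup inside clusters was not tested.

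Other genes differed within sublining-like cells by more than 2-fold. C2 was at 13.8 and 46.6 CPM, log2 ratio 1.75 (1.54 to 1.96). Cfi, factor I, which cuts C3b and C4b, was at 1.18 and 9.65 CPM, log2 ratio 3.04 (2.44 to 3.66). Masp1, a protease of the lectin pathway, was at 4.54 and 21.6 CPM, log2 ratio 2.25 (1.92 to 2.59), and Vtn, vitronectin, which blocks the membrane attack complex, at 27.7 and 60.2 CPM, log2 ratio 1.12 (0.95 to 1.29). C7, a component of that complex, was lower, 96.3 CPM in control against 16.6 in MMS, log2 ratio -2.53 (-2.80 to -2.28). In these cells 6 of 29 measured genes were at least 2-fold higher, against 8.19% of all genes, and 7 at least 2-fold lower, against 6.17%. Counted without a limit on size, 17 of 29 were higher in MMS by any amount, against 54.6% of all genes. The other 2 higher, C8g and C3ar1, had 17 and 23 UMIs, and the lower ones besides C7 were Cfd and 5 myeloid genes (C1qa, C1qb, C1qc, Itgam and Itgb2), all under 10 CPM apart from Cfd.

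In lining-like cells, 3 of 23 measured genes were at least 2-fold higher (C2, Masp1 and Vtn, each with 0 UMIs in control and 19 to 28 in MMS, so that the ratios are bounds against 3 UMIs), against 5.45% of all genes. The 5 at least 2-fold lower were C1qa, C1qb, C1qc, Cfd and Cd59a, against 6.64%. Colec12, a membrane collectin that acts as a scavenger receptor, was high in these cells, 416 and 498 CPM, and Serping1 was at 604 and 388 CPM, log2 ratio -0.64 (-0.70 to -0.58).

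**Figure D4:**
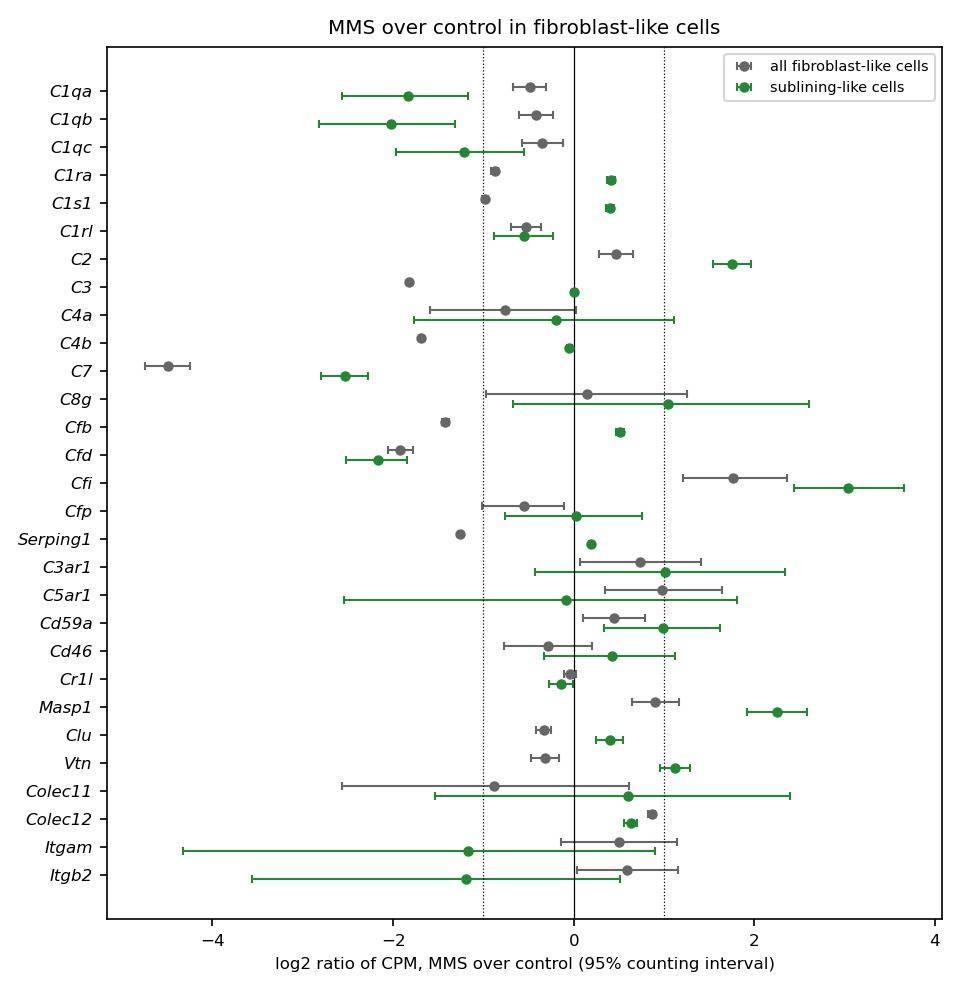
Log2 ratio of CPM, MMS over control, with 95% counting intervals, for the genes measured both in all fibroblast-like cells (grey) and in sublining-like cells (green), with dotted lines at 2-fold. C3 is at -1.82 over the class and at 0.01 in sublining-like cells, while C7 is lower in both (-4.49 and -2.53).

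Among terminal components, C7 was readily detected in control fibroblast-like cells and the others were sparse. C7 had 99.1% of its control UMIs and 99.3% of its MMS UMIs in fibroblast-like cells, and stood at 77.8 CPM in control against 3.46 in MMS over the class, log2 ratio -4.49 (-4.75 to -4.25). A C7 UMI was found in 13.8% of control and 1.15% of MMS cells at 2000 UMIs. Its level was highest in control sub-clusters 8 (269 CPM) and 0 (181 CPM), and the MMS cells of sub-cluster 0 had 106 CPM. C6, with 97 UMIs over all kept cells, was one of the sparse ones. In macrophage or monocyte-like cluster 15 it was at 1.57 and 37.6 CPM, and in MMS sub-cluster 10 of this class (41 cells) at 53.1 CPM. C8g and C9 had 68 and 10 UMIs over all barcodes, spread over several classes, and C8a and C8b were not detected (3 UMIs would be 0.0385 CPM of all kept control cells and 0.0384 of all kept MMS cells). Transcripts of C5 and of both these C8 chains were thus under the limit of the rule at this depth.

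The alternative pathway was split between classes. Cfd, which encodes factor D, also called adipsin, was highest in adipocyte-like cells, at 45119 CPM in control against 15284 in MMS, log2 ratio -1.56 (-1.59 to -1.53). These were 31 and 71 cells of cluster 20, where Ibsp, a gene of bone-forming cells, was the leading gene. The 7 adipocyte markers summed to 13342 CPM in control and 9124 in MMS, and the 6 osteoblast markers to 2024 CPM in control and 1476 in MMS. The Cfd found in other classes was lower in MMS as well: endothelial-like cells had 501 and 85.2 CPM, log2 ratio -2.56 (-2.69 to -2.43), fibroblast-like cells 47.9 and 12.7 CPM, log2 ratio -1.92 (-2.06 to -1.78), and macrophage or monocyte-like cells 74.6 and 20.2 CPM, log2 ratio -1.89 (-2.15 to -1.63). The adipocyte markers in endothelial-like cells summed to 1279 CPM in control and 608 in MMS, and their part in the Cfd values was not tested. Of the 83694 Cfd UMIs over all barcodes, 51597 were in kept cells, against 192413 of 203312 for C3.

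Adipocyte-like cells were also rich in C4b (3029.7 and 2420.1 CPM), Clu (2288 and 1204 CPM) and C3 (1296 and 1128 CPM). Clu, clusterin, a chaperone that binds terminal complement complexes, was 1.90-fold lower in MMS there. The 8 fibroblast markers summed to 14972 CPM in control and 15390.1 in MMS in this class, and their part in its C3 and C4b was not tested. Cfb was at 295 and 312 CPM, Serping1 at 749 and 526 CPM, C1ra at 163 and 173 CPM and Colec12 at 168 and 246 CPM. C1rl (23.3 and 13.1 CPM), C2 (31.1 and 31.2 CPM), C6 (0 and 8.10 CPM), Cfi (5.18 and 6.23 CPM), Masp1 (5.18 and 10.6 CPM) and C4a (2.59 and 0 CPM) also had their highest mean level here, from 62 UMIs or fewer each. For C4a that is 1 UMI, in control, and for C1rl the MMS level was above this in neutrophil-like cells. C3 was also found in T or NK-like cells, 68 in control and 27 in MMS. They held 0.0363% of its control UMIs and 0.662% of its MMS UMIs. Their share of all UMIs of kept cells was 0.571% in control and 0.296% in MMS. What part of this C3 came from other cells was not tested.

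Cfp, properdin, which stabilises the alternative convertase, was myeloid. It stood at 429 CPM in control against 281 in MMS in dendritic-like cells, log2 ratio -0.61 (-0.76 to -0.46), and at 227 CPM in control against 95.7 in MMS in macrophage or monocyte-like cells, log2 ratio -1.25 (-1.37 to -1.13). In dendritic-like cells the direction turned in 4 of 11 alternatives: 0.28 at 500 and 0.27 at 2000 UMIs per cell, 0.14 at Leiden resolution 2.0 and 0.22 with complement genes allowed in the clustering. Within the 2 macrophage or monocyte-like clusters the levels were closer: 52.5 and 63.5 CPM in cluster 13 and 497 and 426 CPM in cluster 15. Cluster 15 held 458 of 1014 control and 58 of 468 MMS cells, and the 2.37-fold lower level over the class was not seen inside either cluster.

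Cfb in endothelial-like cells went the other way from fibroblast-like cells, at 17.9 CPM in control against 49.1 in MMS, log2 ratio 1.45 (1.16 to 1.74). Cluster 7, which holds 91 of the 1960 control and 266 of the 706 MMS endothelial-like cells, had the highest level, 69.4 and 83.7 CPM. The other 4 clusters lay between 9.77 and 17.2 CPM in control and between 3.15 and 23.1 in MMS. By cluster the log2 ratio was 0.27 (-0.14 to 0.71) in cluster 7, 0.43 (-2.84 to 2.75) in 1, -0.01 (-1.30 to 1.09) in 6, -0.61 (-1.70 to 0.49) in 18 and -1.63 (-4.77 to 0.40) in 0. All 5 intervals include 0, and no cluster had a higher level beyond counting error. The 8 fibroblast markers summed to 273 CPM in control and 286 in MMS in endothelial-like cells.

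Among lectin pathway genes, Colec12 was held by both stromal and myeloid cells. It stood at 228 CPM in control against 414 in MMS in fibroblast-like cells, log2 ratio 0.86 (0.83 to 0.90), and at 199 and 162 CPM in macrophage or monocyte-like cells, log2 ratio -0.29 (-0.39 to -0.19). Fcna, ficolin A, had 95.6% of its control UMIs and 93.0% of its MMS UMIs in macrophage or monocyte-like cells, where it was at 215 CPM in control against 134 in MMS, log2 ratio -0.68 (-0.79 to -0.57). It was lower in MMS in both clusters, 215 and 139.6 CPM in cluster 13 and 214 and 76.8 CPM in cluster 15. An antisense gene, Fcnaos, overlaps Fcna and is counted in its own row. Masp1 in endothelial-like cells had 4 UMIs in control and 47 in MMS, with all but 1 of them in cluster 7 (4.87 and 13.5 CPM), and in fibroblast-like cells it was at 4.24 and 7.91 CPM, log2 ratio 0.90 (0.64 to 1.16). Masp2 had 23 UMIs over all barcodes. Colec11, collectin 11, was at 4.58 and 17.4 CPM in mural-like cells, from 7 and 60 UMIs.

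Of the fluid-phase regulators, Serping1 was also held by mural-like cells, at 398 CPM in control against 515 in MMS, log2 ratio 0.37 (0.24 to 0.50). Vtn was highest there, at 164 CPM in control against 90.2 in MMS, log2 ratio -0.86 (-1.11 to -0.62), and 76.9% of its control UMIs and 62.8% of its MMS UMIs were in fibroblast-like cells. Clu in endothelial-like cells was at 72.4 CPM in control against 177 in MMS, log2 ratio 1.29 (1.14 to 1.43). By cluster it was at 376 and 417 CPM in cluster 18, 194 and 127 CPM in cluster 7, 68.8 and 150.4 CPM in cluster 1, 17.7 and 12.6 CPM in cluster 0 and 4.89 and 6.01 CPM in cluster 6. Cluster 18, with the highest level, held 141 of the 1960 control and 156 of the 706 MMS endothelial-like cells. Inside clusters, the MMS level was higher in cluster 1 (267 control and 46 MMS cells) and slightly higher in clusters 18 and 6. In clusters 0 and 7 it was lower. These values by cluster are given without intervals, and the part of makeup in the class ratio was not tested.

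Of the membrane regulators, which protect host cells, Cr1l was found in all classes, while Cd59a was uneven, with 2.83 and 3.86 CPM in fibroblast-like and 1.16 and 2.51 CPM in macrophage or monocyte-like cells. Cr1l, the rodent regulator Crry, was between 54.4 and 179.5 CPM in 7 classes of the control library and between 50.8 and 145 CPM in those of MMS. It was highest in endothelial-like cells, log2 ratio -0.31 (-0.43 to -0.19), and within counting error of no difference in fibroblast-like cells, -0.04 (-0.11 to 0.03). Cd59a, which stops the membrane attack complex, was at 61.6 CPM in control against 106 in MMS in endothelial-like cells, log2 ratio 0.78 (0.61 to 0.95), and at 59.5 and 61.2 CPM in mural-like cells. It was higher in MMS in 4 of the 5 endothelial-like clusters. Cd46, a cofactor for factor I, was at 6.30 and 9.84 CPM in endothelial-like cells. An antisense gene, A330023F24Rik, overlaps Cd46.

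In endothelial-like cells as a whole, 6 of 24 measured genes were at least 2-fold higher in MMS (C2, Cfb, Masp1, Clu, Colec11 and Itgb2), against 8.82% of all genes. C2, Colec11 and Itgb2 rested on few UMIs there. This class held 0.833% of the 600 control and 1.21% of the 745 MMS UMIs of C2. For Colec11 it held 6.90% of 29 and 16.7% of 84, and for Itgb2 0.139% of 7194 and 0.288% of 5894. The 3 at least 2-fold lower were C3, C4b and Cfd, against 4.78%. C3 was at 28.5 and 9.06 CPM and C4b at 18.8 and 6.56 CPM in this class. For each C3 UMI there were 0.660 and 0.724 C4b UMIs, against 0.638 and 0.699 in fibroblast-like cells. Other ratios to C3 were further apart. Serping1 had 0.5957 and 3.414 UMIs for each C3 UMI, against 0.6747 and 0.9955 in fibroblast-like cells. Cfb had 0.6298 and 5.414, against 0.1531 and 0.2017. The part of fibroblast transcripts in the endothelial-like values was not tested. In mural-like cells, 10 of 23 were at least 2-fold higher, against 8.68% of all genes, and 2 at least 2-fold lower (C3 and Cfd), against 5.96%. The 10 were C1qa, C1qb, C1qc, C3ar1, C5ar1 and Itgam, which are myeloid genes, with C1rl, C2, Colec11 and Colec12. Some were sparse in control: mural-like cells held 0.0152% of its 6564 C3ar1 UMIs, 0.0206% of 4862 for C5ar1 and 0.0133% of 7528 for Itgam. Counted without a limit on size, 15 of 23 were higher in MMS by any amount, against 47.8% of all genes. The 8 macrophage markers in this class summed to 36.0 CPM in control and 132 in MMS, the 8 fibroblast markers to 3959.7 CPM in control and 8890.5 in MMS and the 7 lining markers to 1757 CPM in control and 24832 in MMS. The part of these in the mural-like values was not tested.

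Transcripts of the receptors for complement fragments were in myeloid cells. C3ar1, the receptor of C3a, stood at 478 CPM in control against 667 in MMS in macrophage or monocyte-like cells, log2 ratio 0.48 (0.43 to 0.54). It was higher in MMS in both clusters, 567 and 687 CPM in cluster 13 and 339 and 461 CPM in cluster 15. C5ar1, the main receptor of C5a, stood at 354 CPM in control against 382 in MMS, log2 ratio 0.11 (0.04 to 0.18), and C5ar2 at 24.1 and 28.4 CPM, log2 ratio 0.24 (-0.03 to 0.49). With the limit on mitochondrial UMIs at 5% the log2 ratio turned to -0.35 for C3ar1, -0.48 for C5ar1 and -0.21 for C5ar2. With doublets kept it was 0.099 for C3ar1 and -0.20 for C5ar1, and at Leiden resolution 2.0 it was -0.061 for C5ar1. At 2000 UMIs, C3ar1 was found in 54.8% of control and 67.6% of MMS cells and C5ar1 in 49.6% of control and 52.1% of MMS cells. In dendritic-like cells C3ar1 was at 46.1 and 134 CPM, log2 ratio 1.54 (1.27 to 1.81), and C5ar1 at 25.3 and 61.6 CPM, log2 ratio 1.28 (0.89 to 1.67).

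The integrin chains of complement receptors 3 and 4 differed little in macrophage or monocyte-like cells. Itgam, the alpha chain of receptor 3, was at 465 and 444 CPM, log2 ratio -0.07 (-0.13 to 0.00), and their common beta chain Itgb2 at 423 and 423 CPM, log2 ratio 0.00 (-0.07 to 0.06). Itgax, the alpha chain of receptor 4, had 95.1% of its control UMIs and 80.2% of its MMS UMIs in dendritic-like cells, where it was at 76.7 and 107 CPM. Its log2 ratio there was 0.48 (0.21 to 0.75) and turned in 1 of 11 alternatives, to -0.39. Those cells had Itgam at 224 and 301 CPM and Itgb2 at 239 and 289 CPM. Cr2, a receptor of B cells, had 33 UMIs over all barcodes.

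The MMS library had 310 neutrophil-like cells, in clusters 22 and 25. They held 31.4% of the C5ar1 UMIs of that library, 37.9% of Itgam and 31.4% of Cfp. Cluster 25 had C5ar1 at 492 CPM and C3 at 170.5, and cluster 22 C5ar1 at 152 and C3 at 434 CPM. For each C3 UMI, MMS neutrophil-like cells had 0.0478 C4b UMIs, against 0.699 in all MMS fibroblast-like cells together. The part of transcripts from other cells in this C3 was not tested. The 20 control cells given this name had the 8 macrophage markers at 19215 CPM and the 8 neutrophil markers at 19574, so a ratio to them does not compare like cells. For Itgb2, which had its highest mean level in this class, that log2 ratio was -0.40.

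C4b was higher in MMS macrophage or monocyte-like cells, the opposite of fibroblast-like cells taken as a whole. It stood at 176 CPM in control against 379 in MMS, log2 ratio 1.11 (1.03 to 1.19), and at 2000 UMIs it was found in 21.9% of control and 38.4% of MMS cells. In cluster 13 it was at 82.0 and 338 CPM, in cluster 15 at 321 and 789.7 CPM, and in the Lyve1 resident-like sub-class at 227 and 655 CPM. C3 was at 21.3 and 14.8 CPM in the same cells. For each C3 UMI there were 8.27 C4b UMIs in control and 25.7 in MMS, against 0.638 and 0.699 in all fibroblast-like cells together. Fibroblast-like cells had no single proportion, since the lining-like ones held more C4b than C3 in both libraries. Among the MMS sub-clusters with at least 20 cells, C4b was at 964 CPM in sub-cluster 10, 691 in 7, 407 in 11, 305 in 0 and 115 in 8. Sub-cluster 0 had both libraries, with C4b at 62.1 CPM in its 186 control cells against that value in its 44 MMS cells. The 8 fibroblast markers summed to 178 CPM in control and 348 in MMS in the class, and Col1a1 was among the leading genes of sub-cluster 11; their part in C4b was not tested. The log2 ratio was 0.20 with the limit on mitochondrial UMIs at 5% and 0.59 with doublets kept.

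In macrophage or monocyte-like cells as a whole, 5 of 26 measured genes were at least 2-fold higher in MMS, against 4.98% of all genes, and 3 at least 2-fold lower (C1s1, Cfd and Cfp), against 4.60%. Of the 5 higher, C4b alone had over 50 UMIs, the others being C6, Cd59a, Clu and Itgax with 18 to 33. The median log2 ratio was -0.36 over the 26 and 0.00 over all genes.

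**Figure D5:**
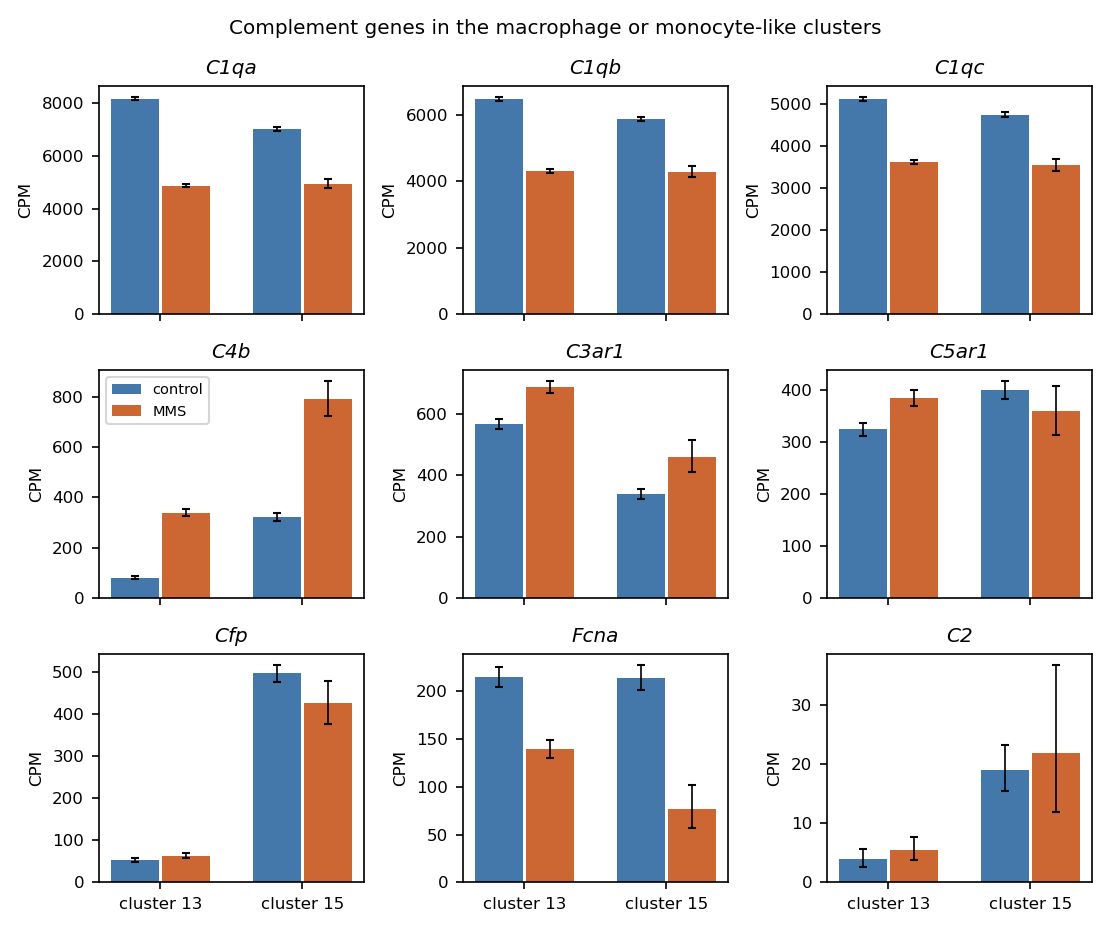
Level of 9 complement genes in the 2 macrophage or monocyte-like clusters, in CPM, control in blue and MMS in orange, with exact Poisson 95% intervals (counting error only). C1qa is lower in MMS in both clusters and C4b higher in both (82.0 and 338 CPM in cluster 13, 321 and 789.7 CPM in cluster 15), while Cfp differs mainly between the clusters.

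Over all kept cells, 3 of 35 measured genes were at least 2-fold higher in MMS, against 11.0% of all genes, and 11 at least 2-fold lower, against 8.81%. The lower ones included C3 (1942 and 524 CPM), C4b (1277 and 426 CPM) and the C1q chains (C1qa at 1363 and 490.0 CPM). This count mixes the level in each class with the number of cells captured of each class.

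A list of 30 other pathway genes was read the same way: 28 had a row and 21 at least 10 UMIs. In fibroblast-like cells, 3 of 17 measured were at least 2-fold higher, against 9.95% of all genes, and 6 at least 2-fold lower, against 9.75%. In macrophage or monocyte-like cells, 1 of 9 measured was higher (Cd5l, with 22 UMIs), against 4.98% of all genes, and 0 were lower, against 4.60%. Of those past 2-fold in fibroblast-like cells, 5 had at least 50 UMIs. Cpn1, the catalytic chain of carboxypeptidase N, which trims C3a and C5a, was at 0.545 and 3.21 CPM, log2 ratio 2.56 (1.94 to 3.23). Thbd, thrombomodulin, which helps factor I, was at 151 and 46.3 CPM, log2 ratio -1.70 (-1.78 to -1.63). Cd55b and Cd59b, close copies of the membrane regulators Cd55 and Cd59a, were at 1.17 and 0.494 CPM and at 2.33 and 1.16 CPM. The fifth, Colec10, or collectin 10, was at 6.23 and 0.173 CPM, log2 ratio -5.17 (-6.50 to -4.11). It was among the leading genes of fibroblast-like sub-cluster 7, which had 264 control and 8 MMS cells. Vsig4, a macrophage receptor of C3b, was at 1819.6 and 1512 CPM in macrophage or monocyte-like cells, and differed between the clusters, 2880.2 and 1646 CPM in cluster 13 against 182 and 141 CPM in cluster 15. Ptx3, a soluble pattern receptor that binds C1q, was at 47.3 and 157 CPM in sublining-like cells, log2 ratio 1.73 (1.62 to 1.85). Fcnb, ficolin B, had 0 UMIs in control and 1373 in MMS over all barcodes, of which neutrophil-like cells held 99.8% among kept cells. Mbl1 and Mbl2, the mannose-binding lectins, had 0 UMIs in both libraries.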

How the data were processed

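Synovium was digested with Liberase and DNase per the labels' protocols, and 1 droplet library of 3′ ends was made per group. The authors deposited raw counts of UMIs per gene and barcode, with 8810 control and 5286 MMS barcodes and at least 500 UMIs in each. The aligner was Cell Ranger 5.0.0 per the file headers. Per the submitters' processing notes it was version 2.0.0, with build mm10. Of 32285 gene identifiers, 32158 matched GENCODE M21 (GRCm38).

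Barcodes with at least 1000 UMIs, 500 genes and at most 10% mitochondrial UMIs were kept. Doublets called with scrublet in scanpy 1.11.5 (195 of 7075 control and 102 of 3871 MMS cells) were removed. Cells were clustered with Leiden at resolution 1.0 on 30 principal components of 2000 variable genes, giving 27 clusters. A cluster was named when its best marker list scored at least 0.35, led the next list by at least 0.10 and had at least 3 detected markers. These limits were chosen with the clusters already known. Other clusters stayed unnamed. The names were rebuilt here and are not the authors'. UMIs were summed per class. A gene was measured with at least 10 UMIs in a class over both libraries, and a library at 0 was given 3 UMIs, so that its ratio is a bound. The ratio and its interval were tested on simulated Poisson counts before use. Those counts hold counting error only, so the run checks the calculation and cannot speak to spread between cells, mice or libraries.

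Genes are described in order of role, each in its leading class and, with at least 50 UMIs, in a second class. Genes and lists were chosen with earlier results of these data known. The alternatives changed the filters, clustering, scaling, depth, fold and makeup.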

Additional observations from a re-analysis of the deposited data

Results flagged for a closer look

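C4b was flagged because it lay past 2-fold in opposite directions in different classes of cells. Its log2 ratio, MMS over control, was 1.107 in macrophage or monocyte-like cells, -1.687 in fibroblast-like cells and -1.518 in endothelial-like cells. Cfb was flagged for the same reason, at 1.451 in endothelial-like and -1.42 in fibroblast-like cells. These values are for whole classes. Within sublining-like cells C4b was nearly level and Cfb was higher in MMS. Within endothelial-like cells no cluster had a higher Cfb level beyond counting error. With 1 library per group the difference between classes was not tested.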

How the results depend on the processing

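The genes described in a leading or second class gave 39 log2 ratios, recomputed in 469 alternatives. The 39 include Itgb2 in neutrophil-like cells, which is set against the 20 control cells of mixed markers. Of the 39, 22 kept their sign in every alternative run. Of the 12 past 2-fold, 9 kept their sign and 5 stayed past 2-fold throughout. With equal weight for lining-like and sublining-like cells, 6 ratios in fibroblast-like cells changed sign: C3 to 0.00312, Cfb to 0.51, Serping1 to 0.053, C1ra to 0.40, C1s1 to 0.39 and Masp2, on 16 UMIs, to 1.89. That alternative sets the weights of lining-like and sublining-like cells and leaves out the unnamed sub-clusters. The cause of the changes under any alternative was not tested.

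Of 181 recomputed counts, 144 stayed within 1.5 times the main count. In fibroblast-like cells, the 3 genes at least 2-fold higher became 11 at 5% mitochondrial UMIs, 8 with means over cells, 6 with equal weighting, 5 without clusters holding a tendon marker, 8 at 1.5-fold and 1 with 50 UMIs per gene. The 6 lower became 10 at resolution 0.5 and 10 at 1.5-fold. In macrophage or monocyte-like cells, the 5 higher became 3 at 500 and 3 at 2000 UMIs per cell, 8 at 5% mitochondrial UMIs, 3 with complement genes allowed in the clustering, 3 with means over cells, 0 with thinned cells and 1 with 50 UMIs per gene. The 3 lower became 7, 6 and 8 under the first 3 of these settings, 7 with doublets kept, 5 with complement genes allowed and 8 at 1.5-fold. In endothelial-like cells, the 6 higher became 2 with thinned cells, 14 at 1.5-fold and 3 with 50 UMIs per gene, and the 3 lower became 7 at 5% mitochondrial UMIs, 7 with doublets kept and 6 with means over cells. In mural-like cells, the 10 higher became 4 with doublets kept and 6 with 50 UMIs per gene, and the 2 lower became 5, 1 and 5 with doublets kept, thinned cells and 1.5-fold. The 8 genes highest in fibroblast-like cells became 13 at 5% mitochondrial UMIs. In lining-like cells, 3 higher became 5 with complement genes allowed in the sub-clustering, and 5 lower became 3 at 2000 UMIs per cell. In sublining-like cells, 6 higher became 3 at 500 UMIs per cell and 3 at 5% mitochondrial UMIs.

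C4b in macrophage or monocyte-like cells ranged from 0.20 to 1.22 over its alternatives. With 1 pooled library per group, no spread between animals could be had, and no paired analysis was possible because each group had 1 sample. Depth limited C4a, C6, C8g, C9, Cr2 and Masp2, which had 110 UMIs or fewer over both libraries.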

Other observations

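Unnamed clusters lay outside the classes compared above. Their cells, 65 in control and 398 in MMS, had C3 at 505 and 61.1 CPM, C4b at 427 and 58.1 CPM, C1s1 at 59.4 and 82.8 CPM and Clu at 11.5 and 92.1 CPM. Of these, 232 MMS cells and 0 control cells were in cluster 26, led by Col11a1, Acan and Fmod. No comparison was made, since the 2 libraries held different cells there.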
